A study of Mus musculus with 8 samples.

Results

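The genes described here are 9 that encode enzymes able to finish the sugar chains of the gonadotropins, and *Sult5a1*, which was listed with them. They were *Chst8*, *Chst9*, *B4galnt3*, *B4galnt4*, *St3gal3*, *St3gal4*, *St3gal6*, *St6gal1*, *B4galt1* and *Sult5a1*. They were chosen by symbol, and each of the 10 had its own entry among the 55523 entries of the count table. RNA came from pituitary cells sorted for EGFP in Ad4BP-BAC-EGFP mice, whose transgene marks NR5A1-expressing gonadotropes. There were 4 male and 4 female samples, all of this genotype and without a stated treatment or age. Male replicate 1, which was excluded in the study, is shown apart. The sex comparisons use male replicates 2 to 4 against the 4 females. The labels do not say how many animals went into a sample, so the p-values measure the spread between these samples.

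The gonadotropins LH and FSH are glycoproteins, and the ends of their N-glycans set how long they stay in the circulation. On LH, B4GALNT3 and B4GALNT4 can attach N-acetylgalactosamine (GalNAc), to which CHST8 and CHST9 add sulfate. Sulfated GalNAc is recognised by the mannose receptor of the liver, and mice without *Chst8* have raised LH. In the competing route, which predominates on FSH, B4GALT1 attaches galactose, and ST3GAL3, ST3GAL4, ST3GAL6 or ST6GAL1 cap it with sialic acid. *Sult5a1* belongs to the cytosolic sulfotransferases, which act on small molecules. The name of a glycan enzyme therefore does not hold for it, and it is described last.

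Both steps of the sulfation route have a gene whose upstream stretch holds the EGR1 motif GCGTGGGCG, and these stretches are shown with the motif in capitals. EGR1 is a transcription factor induced by GnRH. The first line is the 250 bases before the RefSeq start of *Chst8*, on the minus strand of GRCm38.p6 at chr7:34812712-34812961. The second line is the 30 bases around the motif before *B4galnt3*, on the minus strand at chr6:120294933-120294962.

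Chst8: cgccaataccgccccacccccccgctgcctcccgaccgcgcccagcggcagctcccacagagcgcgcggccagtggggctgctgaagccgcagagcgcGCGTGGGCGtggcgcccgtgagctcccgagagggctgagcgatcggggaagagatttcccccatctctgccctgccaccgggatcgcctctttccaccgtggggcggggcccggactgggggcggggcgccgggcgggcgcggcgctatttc

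B4galnt3: cggggccaagGCGTGGGCGggacaggtagg

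The motif lies 152 to 144 bases before the start of *Chst8* and 55 to 47 bases before that of *B4galnt3*, both counted from the RefSeq start. GENCODE M21 has the same start for *Chst8*, but its *B4galnt3* starts 338 bases further downstream. It was searched on both strands in the 250 bases before each start, and 0.536% of 32851 RefSeq starts had it. The table of starts held 9 of the 10 genes with 12 starts, all but *Chst9*, and the motif was found at 2 of these starts. The NR5A1 motif AAGGTCA, found at 4.08% of all starts, and the PITX1 motif TAATCC, found at 6.25%, matched none of the 12. *Sult5a1* is shown for contrast, by 200 bases on the minus strand at chr8:123158331-123158530, which hold none of the 3 motifs. The motifs were chosen after these sequences had been read, and a match describes letters and not binding.

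Sult5a1: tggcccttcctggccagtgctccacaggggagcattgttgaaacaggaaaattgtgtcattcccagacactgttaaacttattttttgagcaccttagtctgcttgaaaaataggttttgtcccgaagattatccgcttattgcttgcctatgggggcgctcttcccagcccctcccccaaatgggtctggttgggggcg

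The samples held between 18774578 and 31302588 counts, so that a floor of 3 counts corresponded to 0.0921 to 0.146 CPM (counts scaled to the library's size and TMM factor), which covers counting error only. The gonadotrope markers *Lhb*, *Fshb*, *Cga*, *Gnrhr* and *Nr5a1* were present in all 8 samples, but *Nr5a1* was only 16.3 CPM in male replicate 1 against at least 584 CPM elsewhere. The summed CPM of these 5 markers was 67930 to 75717 in male replicates 2 to 4, 21488 to 34863 in the females and 28423 in male replicate 1. Most of this sum was *Cga* and *Fshb*, and *Nr5a1* itself lay the other way, at 584 to 801 CPM in male replicates 2 to 4 and 862 to 1266 CPM in the females. RNA of other pituitary cells was present and in part differed between male replicates 2 to 4 and the females. The somatotrope markers *Gh* and *Ghrhr* summed to 65338 to 142305 CPM in male replicates 2 to 4 and 12397 to 57867 CPM in the females. Almost all of this was *Gh*, and *Ghrhr* overlapped, at 8.94 to 60.7 CPM in these males and 2.95 to 25.7 CPM in the females. The 4 stem or folliculostellate markers summed to 215 to 271 CPM and 303 to 534 CPM, respectively, and the 3 thyrotrope markers to 278 to 384 CPM and 84.6 to 224 CPM. Among the latter, *Tshb* and *Trhr* were above the females in these males, but *Dio2* was below them, at 39.0 to 49.5 CPM against 63.2 to 139 CPM. Of the stem or folliculostellate markers, 2 had females above with ranges apart, while *Aldh1a2* and *S100b* overlapped between the sexes. In male replicate 1 the somatotrope, stem or folliculostellate and thyrotrope sums were 30152, 399 and 105 CPM, each inside the female range. The part of these other cells in the sex comparisons was not tested. In such bulk samples, fewer cells of a type and less RNA per cell cannot be told apart.

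All 10 genes were detected in both sexes, although *B4galnt3* was near the floor. To compare genes with each other, CPM was divided by the exon length annotated in GENCODE M21, which may differ from the assembled loci that the authors counted. *B4galt1*, the galactosyltransferase of the sialylation route, was the highest at 28.4 ± 2.80 CPM per kb (SD, n = 3) in male replicates 2 to 4 and 34.7 ± 2.19 CPM per kb (SD, n = 4) in females. *St6gal1* followed it in females, at 23.8 ± 5.33 CPM per kb, with no overlap between their ranges. In males, *Sult5a1* at 21.6 ± 8.45 CPM per kb and *St6gal1* at 17.0 ± 2.81 CPM per kb followed, and neighbouring ranges overlapped. *B4galnt3* was the lowest in both sexes, at 0.222 ± 0.229 CPM per kb in males and 0.0649 ± 0.0566 CPM per kb in females.

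**Figure D1:**
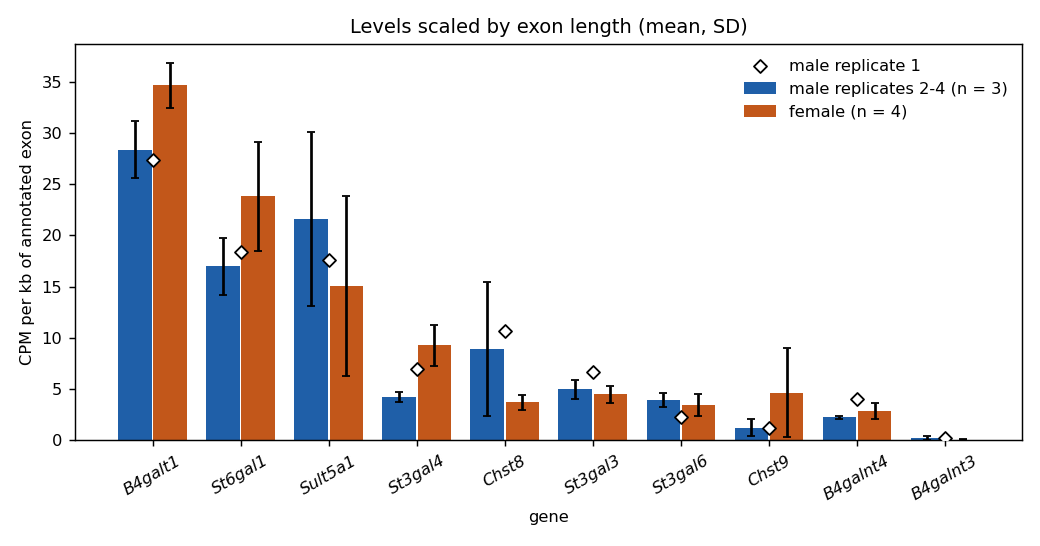
CPM per kb of annotated exon (vertical axis) for each of the 10 genes (horizontal axis), with bars for the mean and error bars for the SD of male replicates 2 to 4 (n = 3, blue) and females (n = 4, orange) and a diamond for male replicate 1. *B4galt1* was highest at 28.4 and 34.7 CPM per kb, and *B4galnt3* was barely visible at 0.222 and 0.0649 CPM per kb.

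Between these ends, the order in males was *Chst8* (8.90 ± 6.51 CPM per kb), *St3gal3* (5.01 ± 0.930), *St3gal4* (4.27 ± 0.497), *St3gal6* (3.94 ± 0.694), *B4galnt4* (2.24 ± 0.132) and *Chst9* (1.22 ± 0.833). The ranges of neighbours overlapped except for *St6gal1* over *Chst8*, *St3gal6* over *B4galnt4* and *B4galnt4* over *Chst9*. In females, the order after *St6gal1* was *Sult5a1* (15.1 ± 8.78 CPM per kb), *St3gal4* (9.27 ± 1.97), *Chst9* (4.67 ± 4.38), *St3gal3* (4.52 ± 0.832), *Chst8* (3.71 ± 0.723), *St3gal6* (3.49 ± 1.07) and *B4galnt4* (2.88 ± 0.813). Each of these overlapped with its neighbour, whereas *B4galnt4* over *B4galnt3* was apart. Among all entries with a count, *B4galt1* and *St6gal1* lay at mean CPM percentiles of 95.5 and 93.0 over the 7 compared samples, and *B4galnt3* at 23.3.

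The sex comparison used the quasi-likelihood test of edgeR, and a positive log2 fold change means a higher level in males. The p-values were adjusted over the 20152 entries that passed a filter on low counts, among them all 10 genes. *St3gal4* was the only gene of the 10 past the adjusted threshold of 0.05, and it was lower in males. Across all tested entries 2.34% passed, 0.983% as higher in males and 1.35% as higher in females. The estimate was above 0 for 5 of the genes and below 0 for the other 5, with a median log2 fold change of −0.10 against −0.03 over all entries. At an unadjusted p under 0.05 there were 3 genes, all lower in males, beside 19.9% of entries. CPM ranges of the sexes did not overlap for 2 of the 10 genes, *St3gal4* and *B4galt1*, beside 22.3% of entries. In both genes the females were above, as in 10.8% of entries.

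**Figure D2:**
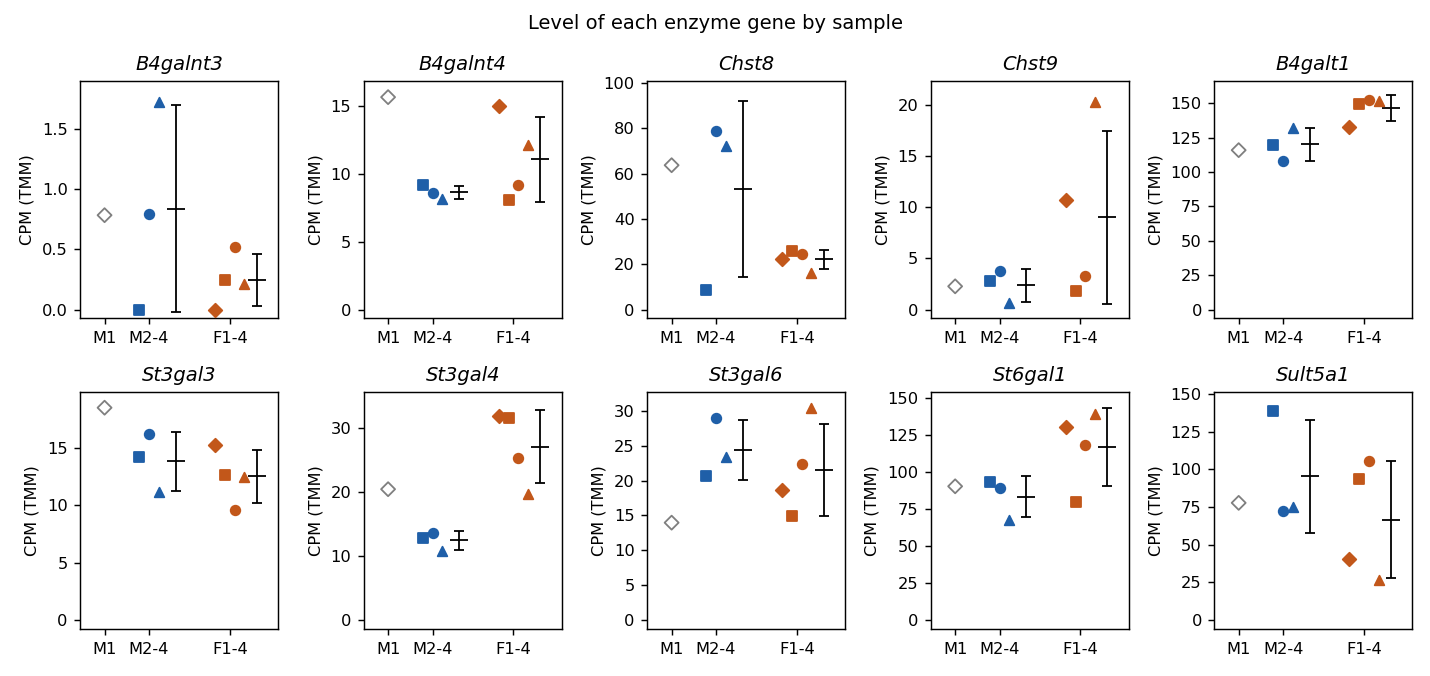
CPM (vertical axis, scaled by TMM) of each gene in male replicate 1 (M1, open diamond), male replicates 2 to 4 (M2-4, blue) and female replicates 1 to 4 (F1-4, orange), with the mean and SD beside each group. Diamonds, squares, circles and triangles are replicates 1, 2, 3 and 4. *St3gal4* lies between 10.9 and 13.7 CPM in M2-4 and between 19.8 and 31.8 CPM in F1-4, and *Chst8* in male replicate 2 lies far below the other males.

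The first enzymes of the sulfation route are the GalNAc transferases. *B4galnt4* (ENSMUSG00000055629.5, chromosome 7, 141061104 to 141072400, plus strand) was 9.18, 8.57 and 8.17 CPM in male replicates 2, 3 and 4. It was 15.0, 8.05, 9.18 and 12.1 CPM in female replicates 1 to 4. The 3 males were close together and lay within the lower part of the female range. In the comparison of the sexes its log2 fold change was −0.39 (standard error 0.24, 95% interval −0.97 to 0.18), with an adjusted p of 0.441 from edgeR.

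*B4galnt3* (ENSMUSG00000041372.10, chromosome 6, 120203073 to 120294559, minus strand) rested on few counts. There were 0, 21 and 38 counts in male replicates 2, 3 and 4, 18 in male replicate 1, and 0, 5, 17 and 5 in the females. The libraries with 0 counts allow up to 0.118 CPM in male replicate 2 and 0.128 CPM in female replicate 1. The groups overlapped, and the log2 fold change was 1.71 with a standard error of 1.47 and an adjusted p of 0.599 from edgeR. It overlaps *D330020A13Rik*, annotated on the opposite strand, and the stretch printed above lies in an exon of that gene. *B4galnt4* was therefore the main GalNAc transferase by level, at 4.65 to 55.1 times *B4galnt3* per kb in the samples with a count of both.

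*Chst8* (ENSMUSG00000060402.7, chromosome 7, 34674468 to 34812711, minus strand), the sulfotransferase that acts after them, varied strongly among males. It was 8.43, 78.8 and 72.1 CPM in male replicates 2, 3 and 4 and 63.7 CPM in male replicate 1. It was 22.4, 25.8, 24.4 and 16.0 CPM in female replicates 1 to 4. Thus 3 of the 4 male samples lay above every female, and male replicate 2 lay below every female, with 214 counts. The 4 females differed by at most 1.61 times.

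The log2 fold change of *Chst8* was 1.23 (standard error 0.65, 95% interval −0.29 to 2.76), with an adjusted p of 0.354 from edgeR. Without male replicate 2 it was 1.74 with an adjusted p of 0.0472, and with each other sample left out in turn it was between 0.85 and 1.35 with an adjusted p of at least 0.417. With all 8 samples it was 1.33, with an adjusted p of 0.482. The two-sided exact permutation p for the 7 samples was 0.314. The sums of gonadotrope markers in male replicates 2, 3 and 4 were 69236, 67930 and 75717 CPM. The somatotrope marker *Ghrhr* was lowest of the males in male replicate 2, at 8.94 CPM, and was 26.8, 60.7 and 24.7 CPM in male replicates 3, 4 and 1, while *Gh* was 65329, 77150.5 and 142244 CPM in male replicates 2, 3 and 4 and 30128 CPM in male replicate 1. In female replicates 1 to 4, *Ghrhr* was 2.95, 8.59, 25.7 and 7.22 CPM, and *Gh* was 12394, 57859, 46865 and 51830 CPM. The part of these cell types in the level of *Chst8* was not tested.

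*Chst9* (ENSMUSG00000047161.12, chromosome 18, 15451924 to 15760157, minus strand), the second GalNAc sulfotransferase, varied most in the females. It was 10.7, 1.80, 3.28 and 20.3 CPM in female replicates 1 to 4, with 251, 37, 107 and 470 counts. It was 2.76, 3.74 and 0.590 CPM in male replicates 2, 3 and 4, and 2.27 CPM in male replicate 1. The female replicates 1 and 4 lay above all males, and replicates 2 and 3 lay inside their range. The log2 fold change was −1.97 with a standard error of 0.96 and a 95% interval from −4.23 to 0.29, and its adjusted p from edgeR was 0.316.

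The sulfotransferase that prevailed therefore differed between samples. Per kb, *Chst8* was 0.991, 6.84 and 39.6 times *Chst9* in male replicates 2, 3 and 4 and 9.10 times in male replicate 1. It was 0.675, 4.63, 2.41 and 0.256 times *Chst9* in female replicates 1 to 4. *Chst9* was thus the higher of the pair in female replicates 1 and 4, and the pair was nearly level in male replicate 2. Without division by length, *Chst8* was above *Chst9* in every sample but female replicate 4. Per kb, the share of *Chst8* in the sum of both was between 20.4% and 82.3% in females and between 49.8% and 97.5% in male replicates 2 to 4.

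**Figure D3:**
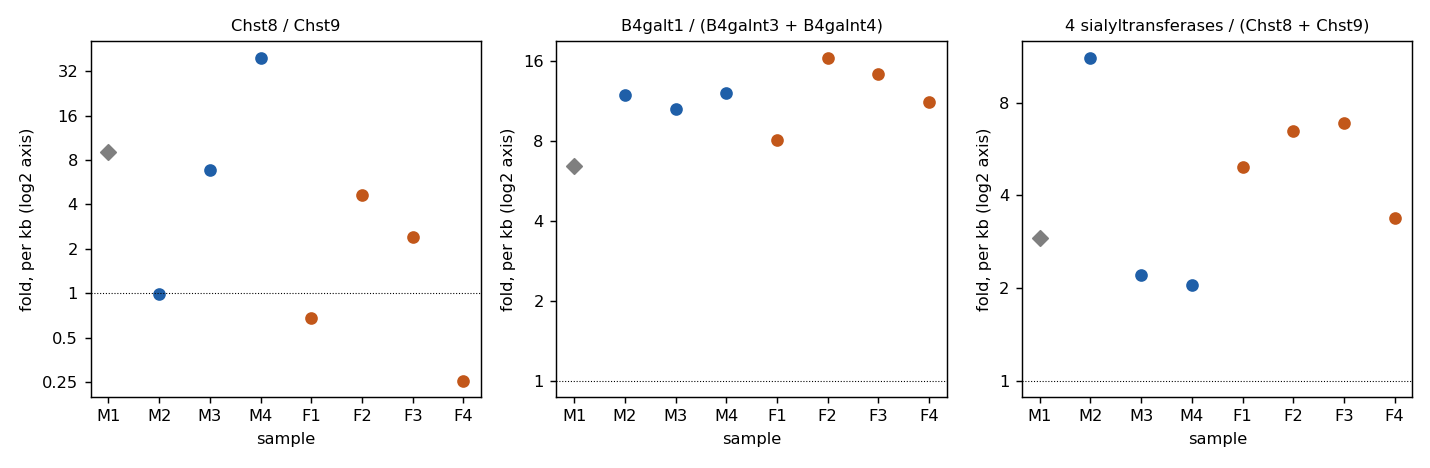
Ratio of levels per kb within each sample (vertical axes, log2 scale) for *Chst8* over *Chst9*, *B4galt1* over the summed *B4galnt3* and *B4galnt4*, and the 4 summed sialyltransferases over the summed *Chst8* and *Chst9*, with samples M1 (grey diamond), M2 to M4 (blue) and F1 to F4 (orange) along the horizontal axes. *Chst8* over *Chst9* spans 0.256 to 39.6, whereas *B4galt1* over the GalNAc transferases stays between 6.41 and 16.4.

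*B4galt1* (ENSMUSG00000028413.13, chromosome 4, 40804602 to 40854005, minus strand), which starts the competing route, varied least, with a highest level of 1.41 times the lowest over the 7 compared samples. It was 119.9, 108.4 and 132.1 CPM in male replicates 2, 3 and 4 and 132.9, 149.95, 152.3 and 151.8 CPM in female replicates 1 to 4. Each male lay below each female, although male replicate 4 and female replicate 1 differed by less than 1 CPM. The log2 fold change was −0.32 (standard error 0.13, 95% interval −0.63 to −0.01), with an adjusted p of 0.242 from edgeR, and the two-sided exact permutation p was 0.0571. Male replicate 1, at 116 CPM, lay inside the male range.

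Per kb, *B4galt1* was 11.9, 10.5 and 12.1 times the sum of *B4galnt3* and *B4galnt4* in male replicates 2, 3 and 4. It was 8.06, 16.4, 14.3 and 11.2 times that sum in female replicates 1 to 4 and 6.41 times in male replicate 1. The galactosyltransferase mRNA was thus above the GalNAc transferase mRNAs in each of the 8 samples, and the sexes overlapped.

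*St3gal4* (ENSMUSG00000032038.7, chromosome 9, 35046576 to 35119268, minus strand), which encodes a sialyltransferase, was 12.9, 13.7 and 10.9 CPM in male replicates 2, 3 and 4. It was 31.8, 31.6, 25.3 and 19.8 CPM in female replicates 1 to 4. Each of the 3 males lay below each female, but male replicate 1, at 20.4 CPM, lay inside the female range. The mean was 12.5 ± 1.45 CPM (SD, n = 3) in males and 27.1 ± 5.75 CPM (SD, n = 4) in females.

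The log2 fold change of *St3gal4* was −1.15 (standard error 0.22, 95% interval −1.67 to −0.64), and its adjusted p in edgeR was 0.0494. The fitted level was 2.22 times higher in females. The two-sided exact permutation p was 0.0286, the smallest that 3 samples against 4 allow. The call was lost with each of the 7 samples left out in turn, when the log2 fold change was −1.26 to −1.04 and edgeR's adjusted p was 0.0511 to 0.153. With all 8 samples it was −0.91 with an adjusted p of 0.247, and with DESeq2, which called 9.93% of its entries, it was −1.13 with an adjusted p of 0.000358. *4930581F22Rik*, annotated as a processed transcript, overlaps *St3gal4* on the opposite strand. The counting with default settings did not use strand, so reads from stretches shared by exons of such a pair cannot be told apart. Genes on the opposite strand also overlap the spans of *B4galnt3*, *St3gal3*, *St3gal6*, *St6gal1* and *Sult5a1*. Whether exons overlap within these pairs was not examined. Of the 4 stem or folliculostellate markers, 2 were also higher in females with ranges apart, and *Aldh1a2* and *S100b* overlapped. The part of these cells was not tested.

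**Figure D4:**
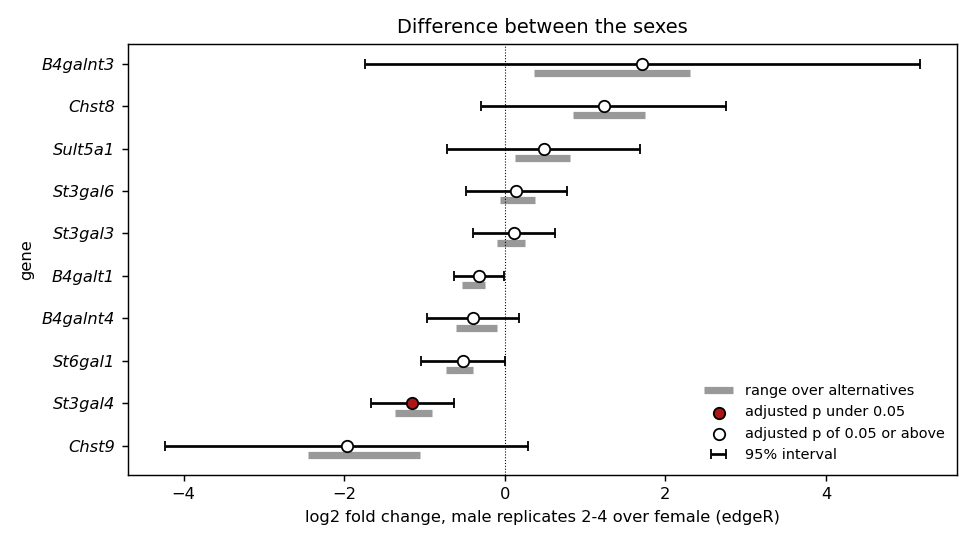
Log2 fold change of male replicates 2 to 4 over females (horizontal axis) for each of the 10 genes (vertical axis), from edgeR, with 95% intervals as black lines, the range over the alternatives as grey bars, and a red point for an adjusted p under 0.05. *St3gal4*, at −1.15, has the red point, and the intervals of *B4galnt3*, *Chst9* and *Chst8* are the widest.

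*St6gal1* (ENSMUSG00000022885.16, chromosome 16, 23224740 to 23360350, plus strand), which caps galactose through another linkage, was the highest sialyltransferase of the 4 in every sample. It was 93.3, 89.4 and 67.7 CPM in male replicates 2, 3 and 4 and 130.5, 80.0, 118 and 139.7 CPM in female replicates 1 to 4. Female replicate 2 lay among the males and the other females lay above them. The log2 fold change was −0.52 (standard error 0.22, 95% interval −1.04 to −0.002), with an adjusted p of 0.251 from edgeR.

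*St3gal3* (ENSMUSG00000028538.12, chromosome 4, 117932154 to 118134914) and *St3gal6* (ENSMUSG00000022747.17, chromosome 16, 58468125 to 58524243), both on the minus strand, overlapped between the sexes. *St3gal3* was 14.2, 16.2 and 11.1 CPM in male replicates 2, 3 and 4 and 15.3, 12.7, 9.64 and 12.5 CPM in the females. *St3gal6* was 20.6, 29.0 and 23.3 CPM in male replicates 2, 3 and 4 and 18.6, 14.9, 22.4 and 30.3 CPM in the females. Both spreads were larger than the differences of their means. The log2 fold changes were 0.11 (95% interval −0.40 to 0.62) and 0.14 (95% interval −0.48 to 0.77), with adjusted p of 0.838 and 0.831 from edgeR, and both changed sign when libraries were scaled by their size alone.

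Per kb, *St6gal1* made up between 47.8% and 63.7% of the 4 sialyltransferases in females and between 54.4% and 59.6% in male replicates 2 to 4. The share of *St3gal4* was 15.2% to 31.7% in females and 13.8% to 14.7% in these males. That of *St3gal6* was 6.56% to 11.02% and 10.5% to 15.0%, and that of *St3gal3* was 8.74% to 13.4% and 15.9% to 17.5%. In male replicate 1 the shares were 53.6% for *St6gal1*, 20.3% for *St3gal4*, 6.59% for *St3gal6* and 19.5% for *St3gal3*, so that its *St3gal4* share lay inside the female range. The ranges of *St3gal6* overlapped between the sexes also without it, and those of *St3gal3* did not overlap with or without it. A share depends on all 4 genes, and the CPM of *St3gal3* itself overlapped between the sexes, with an adjusted p of 0.838 from edgeR. The 4 sialyltransferases together were 11.2, 2.21 and 2.04 times *Chst8* and *Chst9* together in male replicates 2, 3 and 4. They were 4.94, 6.48, 6.88 and 3.38 times as high in female replicates 1 to 4 and 2.90 times in male replicate 1. The sulfotransferases were thus nearest to the sialyltransferases in male replicates 3, 4 and 1, and farthest in male replicate 2.

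*Sult5a1* (ENSMUSG00000000739.14, chromosome 8, 123140192 to 123158315, minus strand), the cytosolic sulfotransferase, was 139, 72.5 and 75.3 CPM in male replicates 2, 3 and 4 and 77.8 CPM in male replicate 1. It was 40.8, 93.6, 105 and 26.4 CPM in female replicates 1 to 4. The females formed a high pair and a low pair, and the high pair lay inside the male range. The log2 fold change was 0.49 (standard error 0.51, 95% interval −0.71 to 1.69), with an adjusted p of 0.675 from edgeR.

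Of the 10 genes, male replicate 1 lay inside the range of the other males for 6, above it for *B4galnt4*, *St3gal3* and *St3gal4*, and below it for *St3gal6*. The genes whose pattern over the 8 samples was most like that of *Chst8* were *Sez6*, *Kremen2* and *Olfr1033*, by Pearson correlations of log2(CPM + 1) of 0.96, 0.94 and 0.93. *Ino80*, *Ebna1bp2* and *Ssbp2* were most like *Sult5a1*, at 0.96, 0.95 and 0.93. These are descriptions picked from 20152 entries, and all points share the scaling of their library.

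The other genes of the pathway were read from 9 lists with 90 genes, of which 75 passed the filter. Of these, 6 passed the adjusted threshold, 3 higher in males and 3 higher in females, beside 2.34% of all entries. The median log2 fold change was 0.15, against −0.03 for all entries. The genes for trimming and branching of N-glycans, upstream of all the enzymes above, included the 3 that were higher in females, and 14 of 14 were tested. *Fut8*, which adds core fucose, was 64.2 to 69.8 CPM in females and 38.6 to 43.1 CPM in male replicates 2 to 4, at a log2 fold change of −0.74 and an adjusted p of 0.0402 from edgeR. *Mgat3*, which adds the bisecting GlcNAc, was 61.7 to 72.3 CPM against 24.2 to 40.1 CPM, at −1.12 with an adjusted p of 0.0417 from edgeR. *Man1a*, a trimming mannosidase, was 21.9 to 40.3 CPM against 8.49 to 14.1 CPM, at −1.40 with an adjusted p of 0.0494 from edgeR. None of these 3 ranges overlapped. How the 6 calls from the lists depend on the processing was not examined. The highest genes of this list were *Man2a1*, at a log2 fold change of 0.86 and an adjusted p of 0.158 in edgeR, and *Man1a2*, at −0.01 with 0.990.

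**Figure D5:**
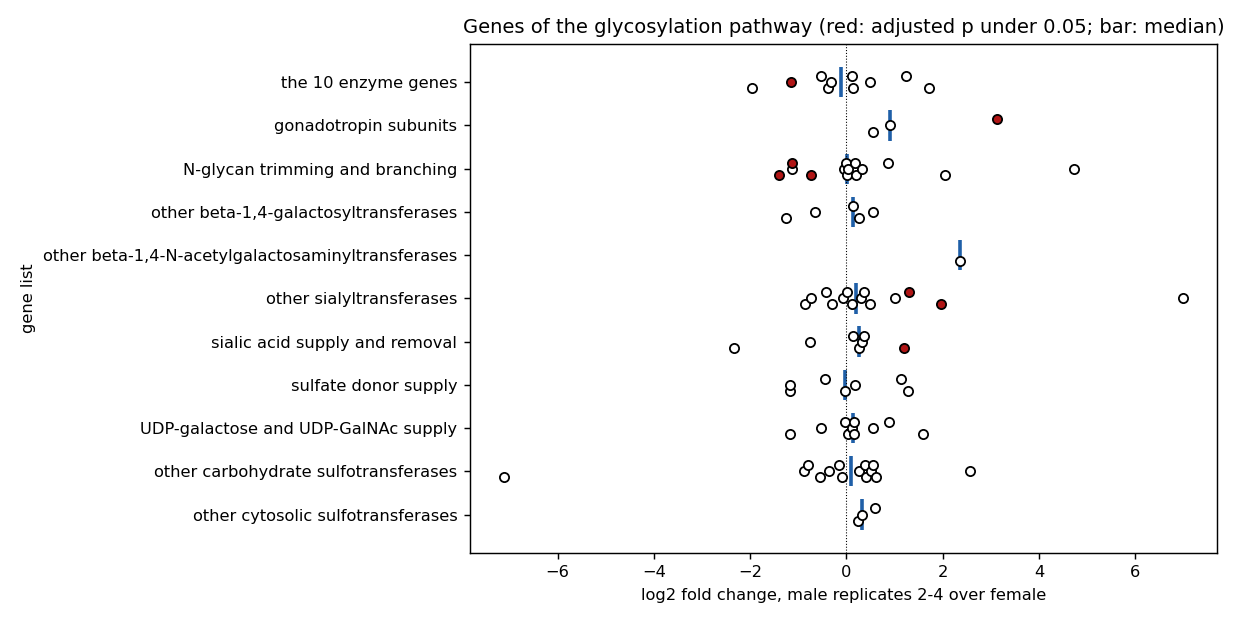
Log2 fold change of male replicates 2 to 4 over females (horizontal axis) for each tested gene of the 10 enzymes, the gonadotropin subunits and the 9 other pathway lists (vertical axis), with the list's median as a blue bar and genes with an adjusted p under 0.05 in red. The red points among the 9 lists are 3 trimming and branching genes below 0, and 2 sialyltransferases and 1 sialic acid supply gene above 0.

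Sialylation genes outside the gonadotropin set included those higher in males. *St8sia3*, which extends sialic acid chains, was 225 to 277 CPM in male replicates 2 to 4 and 65.3 to 119 CPM in females, at a log2 fold change of 1.30 and an adjusted p of 0.0402 from edgeR. *St6galnac3*, which adds sialic acid to GalNAc, was 15.5 to 32.7 CPM against 4.98 to 8.34 CPM, at 1.96 with an adjusted p of 0.0393 from edgeR. *Gne*, whose enzyme starts sialic acid synthesis, was 32.2 to 41.6 CPM against 11.5 to 21.1 CPM, at 1.20 with an adjusted p of 0.0477 from edgeR. In male replicate 1 they were 82.6, 11.6 and 12.05 CPM, below the other males in each case. This lay inside the female range for *St8sia3* and *Gne* and above it for *St6galnac3*. Of the lists, 2 of 14 tested sialyltransferases and 1 of 7 genes of sialic acid supply and removal thus passed. CPM ranges lay apart with males above for 4 of these sialyltransferases and with females above for 2. For sialic acid supply and removal these counts were 3 and 1, beside 11.5% and 10.8% of all entries. The highest others were *St3gal5* (log2 fold change 0.02), *Nans* (0.32) and *Neu1* (0.27), and none of these passed.

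No gene passed among the 7 tested of sulfate donor supply, 10 of UDP-sugar supply, 14 other carbohydrate sulfotransferases, 3 other cytosolic sulfotransferases, 5 other galactosyltransferases and 1 other GalNAc transferase. *Bpnt1* and *Impad1*, which clear the by-product of sulfation, were the highest of the donor list, with log2 fold changes of 1.13 and −0.44 and adjusted p of 0.0672 and 0.143 from edgeR. *Chst12* and *Chst2* were the highest other carbohydrate sulfotransferases, at 0.38 and 0.51. *Sult4a1* and *Sult1a1* were the highest other cytosolic sulfotransferases, at 0.31 and 0.24. *B4galt5* and *B4galt6* were the highest other galactosyltransferases, at 0.14 and 0.56. *Gfpt1* and *Slc35a2* led the UDP-sugar list at 0.11 and 0.55, and *B4galnt1* was at 2.36 with an adjusted p of 0.0748 from edgeR. *B4galnt2* stayed at most 0.454 CPM and was not tested.

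Of the genes for the gonadotropin subunits, which carry these glycans, *Fshb* was higher in males at a log2 fold change of 3.13 (standard error 0.56) and an adjusted p of 0.0449 from edgeR, while *Lhb* and *Cga*, at 0.55 and 0.90, did not pass.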

How the data were processed

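RNA-seq counts per gene of 4 male and 4 female samples of sorted EGFP-positive gonadotropes were used. The authors deposited raw counts, made with cutadapt, STAR and featureCounts at default parameters on mm10. The annotation is not given in the sources used here, and many entries carry names of assembled loci (MSTRG). CPM was computed with TMM factors. The sexes were compared with edgeR 4.0.16 in R 4.3.3, by the quasi-likelihood test after filterByExpr. P-values were adjusted by the method of Benjamini and Hochberg, with 0.05 as the threshold. The standard error was the log2 fold change divided by the square root of F. Two-sided exact permutation tests used log2(CPM + 1). The comparison was made without male replicate 1, as in the study. DESeq2 1.42.0, other scalings and filters, all 8 samples, a replicate block and leaving out each sample were tried as alternatives. The code was tested on simulated data. Total counts were 18774578 to 31302588 per sample, and PCR copies were not separated, so the floors of 3 counts cover counting error only.

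Coordinates and exon lengths came from GENCODE M21 (GRCm38), and sequences from RefSeq (GRCm38.p6). All 10 genes were named. From the pathway lists, genes past the threshold and the 2 with the highest mean CPM were named, and for *Chst8* and *Sult5a1* the 3 entries most correlated with each. The genes and lists were chosen with earlier results of these data known.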

Additional observations from a re-analysis of the deposited data

Results flagged for a closer look

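Of 20 groups of 4 samples (each of the 10 genes in each sex, male replicate 1 included), 4 held a sample whose gap to the nearest other was large for the group's range by Dixon's criterion, where chance gives about 1. *B4galnt4* reached 15.7 CPM in male replicate 1, while the other males had 8.17 to 9.18 CPM. *St6gal1* was down at 67.7 CPM in male replicate 4, below the 89.4 to 93.3 CPM of its group. *Sult5a1* reached 138.6 CPM in male replicate 2, where the remaining males had 72.5 to 77.8 CPM. *B4galt1* was lowest in female replicate 1, at 132.9 CPM, and the other females had 149.95 to 152.3 CPM.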

How the results depend on the processing

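The count of the 10 genes past the threshold was 1 and was 0 in edgeR with upper-quartile factors, with no filter beyond 1 count, with all 8 samples and with the replicate block, when 3, 1, 3 and 1 of the genes had an unadjusted p under 0.05, beside 19.9%, 13.7%, 10.2% and 14.7% of all entries. DESeq2 called 1. Leaving out each sample in turn gave 0 to 1, and the 1 called without male replicate 2 was *Chst8*, not *St3gal4*. *St3gal4* kept its direction in all 16 alternatives and its call in 5. *St3gal3* changed sign with library size alone (−0.099) and without male replicate 3 (−0.0085), and ranged from −0.0085 to 0.24 without 1 sample. *St3gal6* changed sign with library size alone (−0.060). Neither was called in any setting. The cause was not tested. Over all entries, 471 were called, but 2253 with DESeq2, 808 with library size alone, 177 with no filter beyond 1 count, 67 with all 8 samples and 88 to 171 without 1 sample. With library size alone, 16.5% of calls were higher in males against 42% with TMM, and the median log2 fold change moved from −0.03 to −0.24.

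Samples with the same replicate number did not deviate together (correlations of −0.019, −0.008 and −0.0008), and none was most like its own number. With so few pairs, these correlations cannot show whether such samples shared a batch. With the replicate block, edgeR called 0 of 20152 entries, while 2954 of the 20152 had an unadjusted p under 0.05, and it gave *St3gal4* a log2 fold change of −1.05 with an adjusted p of 0.227.

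Mean levels moved by more than the spread in 2 of 40 alternatives, both with library size alone: *B4galnt4* in males (7.84 CPM) and *B4galt1* in females (157 CPM). Ratios between genes depend on the annotated length. With 3 to 4 samples a sex, intervals were wide, and that of *B4galnt3*, which is also limited by depth, ran from −1.74 to 5.17 on the log2 scale.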

Other observations

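Several genes of the pathway lists had single samples or a whole sex far from the rest, and these were picked after their values were seen. *Mgat5*, a branching enzyme of N-glycans, was 298 CPM in male replicate 3, with 7899 counts, while the other 7 samples had 2.18 to 4.48 CPM. *St3gal5*, which makes the ganglioside GM3, was 8.32 CPM in female replicate 3 and 7.73 CPM in male replicate 1, while the remaining 6 samples had 95.95 to 135.5 CPM. *Sult1a1*, a phenol sulfotransferase, was 0.158 CPM in male replicate 2, with 4 counts, while elsewhere it was 7.10 to 17.0 CPM. *Gal3st1*, which makes sulfatide, had 0 counts in the 4 males and 8 to 26 counts in the females. *St6galnac1*, a sialyltransferase of O-glycans, had 0 counts in the 4 females and 13 to 20 counts in the males. *Neu2*, a sialidase, had 55, 57, 60 and 4 counts in female replicates 1 to 4, and 0 counts in the males but for 24 in male replicate 4. None of these 6 genes passed the adjusted threshold in edgeR.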
